A study of Mus musculus with 17 samples.

Results

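The 40 genes described here encode the folding machinery of the endoplasmic reticulum (ER) and the regulators of the unfolded protein response, and they were taken by symbol from the gene tables of every library. All 40 were found among the 26422 genes listed in any library. They were followed in 19877 cells, out of 26229 deposited barcodes, that the authors had kept after quality control. The 17 libraries were made with Seq-Well S3, a nanowell method for single-cell RNA sequencing that counts the 3′ ends of transcripts by unique molecular identifiers (UMIs), so that levels of 1 gene can be compared between samples but levels of different genes cannot. The cells came from small intestinal organoids of wild-type C57BL/6 mice, and every library pooled many organoids. At day 0 the organoids were in ENR+CV medium (EGF, Noggin and R-spondin 1 with CHIR99021, a GSK3 inhibitor that activates Wnt signalling, and valproic acid), which holds them in a stem cell state, and 2 libraries were made. Afterwards they were in ENR+CD, in which DAPT, an inhibitor of gamma-secretase and so of Notch signalling, stood in place of valproic acid, a medium that directs them to the Paneth lineage. Control organoids in ENR+CD gave 7 libraries (1 each at days 0.25, 1, 2, 3 and 4, and 2 at day 6). KPT-330, a small-molecule inhibitor of the nuclear export receptor XPO1, was added to ENR+CD at 160 nM and followed in 8 libraries (1 each at days 0.25, 1, 2 and 4, and 2 each at days 3 and 6). CHIR99021 was present in every group, and DAPT in all libraries but those of day 0. The labels do not say whether same-numbered libraries came from separate cultures or animals, so the p-values measure only the spread between these libraries.

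Secreted and membrane proteins enter the ER through the SEC61 channel, lose their signal peptide, receive sugars and disulphide bonds, and fold with the help of chaperones. Proteins that fail are drawn back to the cytosol and destroyed, a process called ER-associated degradation. When unfolded proteins build up, the sensors IRE1 (Ern1), PERK (Eif2ak3) and ATF6 (Atf6) start the unfolded protein response, and IRE1 does so by cutting a short stretch out of the Xbp1 mRNA so that it codes for an active transcription factor. IRE1β (Ern2) is a second IRE1 of mucosal epithelia. In the intestine, Paneth and goblet cells have the largest load of secreted protein, and loss of Xbp1 in the intestinal epithelium is known to impair both.

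IRE1 cuts the Xbp1 mRNA at the loop motifs CCGCAG and CTGCAG. The 26 bases from the end of the first motif to the end of the second lie at chr11:5524282-5524307 on the plus strand (GRCm38), in exon 4 of 5. They begin at base 482 of the 801 coding bases of the unspliced form. Both motifs end in CAG, so cuts just before or within CAG leave the same spliced sequence. The exact cut bases are not marked. The 26 bases are shown in capitals with the coding bases on both sides. At this point IRE1 acts on a member of the list. The gene counts used here do not separate the cut from the uncut form.
Xbp1: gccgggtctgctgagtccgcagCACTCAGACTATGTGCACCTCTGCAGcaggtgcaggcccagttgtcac

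Known DNA elements of the response were searched in RefSeq promoter windows (GRCm38.p6, from 250 bases before to 50 bases after a transcription start, both strands), which were read for 31 of the 40 genes. The ER stress response element (ERSE, the letters CCAAT and CCACG with 9 bases of any kind between them, bound by ATF6 together with NF-Y) was present in 9 of the 31 (29%), against 37 of 27025 genes (0.137%). ERSE-II (ATTGG and CCACG with 1 base of any kind between them) was present in 2 of the 31, against 12 of all genes (0.0444%), and the unfolded protein response element (UPRE, TGACGTGG, bound by XBP1) in 1, against 193 (0.714%). Altogether 12 of 31 members (38.7%) held at least 1 of the elements, compared with 0.884% of all genes, and no element overlapped another. The matched elements are shown with 5 bases on each side, in capitals where the motif fixes the letters, for 8 of the 12 members that hold one. Distances are counted from the RefSeq start of the window, while the gene spans given below come from another annotation (GENCODE). For Hspa5 and Txndc5 the element lies inside the GENCODE span. Txndc5 had several windows, not all of them with the element.
Hspa5 (ERSE, 65 to 47 bases before the start, chr2:34772025-34772043, plus strand): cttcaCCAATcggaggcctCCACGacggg
Dnajc3 (ERSE, 105 to 87 bases before the start, chr14:118937827-118937845, plus strand): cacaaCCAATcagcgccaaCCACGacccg
Pdia6 (ERSE, 98 to 80 bases before the start, chr12:17266491-17266509, plus strand): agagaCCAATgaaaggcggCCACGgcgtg
Calr (ERSE, 162 to 144 bases before the start, chr8:84847075-84847093, plus strand): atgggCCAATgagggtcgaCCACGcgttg
Syvn1 (ERSE, 44 to 26 bases before the start, chr19:6046532-6046550, plus strand): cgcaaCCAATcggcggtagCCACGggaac
Derl3 (ERSE, 156 to 138 bases before the start, chr10:75893242-75893260, minus strand): gctagCCAATggggaagtcCCACGgtaga
Herpud1 (ERSE-II, 52 to 42 bases before the start, chr8:94386377-94386387, plus strand): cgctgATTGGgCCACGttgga
Txndc5 (UPRE, 138 to 131 bases before the start, chr13:38528045-38528052, minus strand): gccgcTGACGTGGcgcta
The other members with ERSE were Canx, Creld2 and Hsp90b1, which held it at 2 places, and ERSE-II was also found in Dnajb11. Such matches are descriptions of sequence, not evidence that a factor was bound there.

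Library totals over the kept cells ran from 3458887 to 12433109 UMIs and the median cell had 4710, and 14 barcodes occurred in more than 1 library. The replicate 1 libraries of days 0, 0.25 and 1 listed more genes (19823 to 21652) than the others (15576 to 17849), a difference that lies along the time course. Cells were classed by panels of marker genes, 67 in all and none of them a member, into 3517 Paneth-like, 2581 goblet-like, 2075 enteroendocrine-like, 2871 absorptive (enterocyte) and 5270 undifferentiated (stem and cycling) cells, and 3563 cells met no panel. A class is a range of a score, not a type, and 1950 cells lay within 0.1 SD of a limit. Of the 10 genes with the highest fold over the other classes, 5 in Paneth-like, 6 in goblet-like, 4 in enteroendocrine-like, 3 in absorptive and 2 in undifferentiated cells belonged to the class's own panel and 0 to any other. The goblet-like cells also carried abundant Paneth transcripts, with 10.1% of their UMIs from the Paneth panel (28.7% in Paneth-like cells). The goblet panel made up 3.22% of their UMIs (0.834% in Paneth-like cells). Whether the goblet-like class mixes both types was not tested. Immune markers stayed at or below 0.00893 and mesenchymal markers at or below 0.0244 UMIs per 10000 in every library, with 3 to 5 of 5 and 1 to 5 of 5 genes at 0, and tuft cell markers lay between 0.00438 and 0.0442.

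The members as a group made up a growing share of the transcripts as the organoids left the stem cell state. Their share of all UMIs was 0.850% and 0.948% in the libraries of day 0, and 0.924% and 0.938% in control at days 0.25 and 1. It was 1.23%, 1.34% and 1.49% at days 2, 3 and 4, and 1.30% in both libraries of day 6, so that all 5 later libraries lay above the 4 earlier ones. With KPT-330 the share was 0.851%, 1.04% and 1.43% at days 0.25, 1 and 2, then 1.58% and 1.53% at day 3, 1.69% at day 4 and 1.27% and 1.58% at day 6. It was above control at days 1 to 4, below it at day 0.25, and on both sides of it at day 6. By class, over the cells of all libraries with KPT-330 included, the members made up 2.15% of UMIs in goblet-like and 1.80% in Paneth-like cells. They made up 0.971% in enteroendocrine-like, 0.945% in absorptive and 0.856% in undifferentiated cells. The Paneth panel took up 28.7% of UMIs in Paneth-like and 10.1% in goblet-like cells, which lowers the share left for other genes. The order of goblet-like and Paneth-like cells was not tested.

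**Figure D1:**
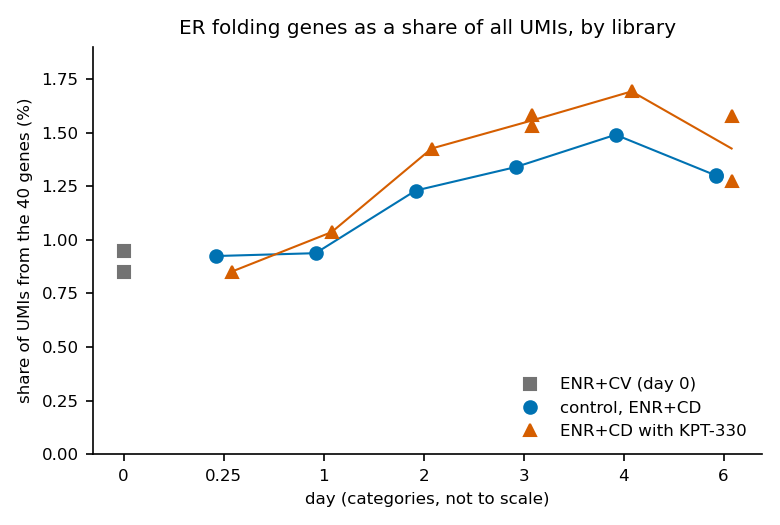
Share of all UMIs that came from the 40 genes (vertical axis, %) in each library against day (categories, not to scale), with squares for ENR+CV, circles for control, triangles for KPT-330 and lines through the mean of a day. Control rises from 0.924% at day 0.25 to 1.49% at day 4, and KPT-330 reaches 1.69% at day 4.

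The time course asked how the members change as specialised cells appear, and untreated libraries of days 2 to 6 (n = 5) were compared with those of days 0 to 1 (n = 4). Of the 40 genes 31 were higher late, 0 were lower and 9 did not pass, while 24.1% of the 12202 genes tested were higher and 24.4% lower (edgeR quasi-likelihood test, Benjamini-Hochberg adjusted p at 0.05). The median log2 fold change was 0.645 over the members and 0.02 over all genes. The rise covered all 5 regulators, 7 of 9 chaperones, 5 of 6 genes of oxidative folding, 6 of 7 genes of ER-associated degradation, 1 of 2 lectin chaperones and 7 of 11 genes of translocation, signal peptide cleavage and glycosylation. Days 0 to 1 and days 2 to 6 differ in medium as well as in time, and without the ENR+CV libraries 24 members were higher and 0 lower. The share of all genes in that refit is not given here. In sums over whole libraries, more cells of a type and more RNA of the gene per cell cannot be told apart.

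All 4 sensors and Xbp1 rose. Ern1 (chr11:106394650-106487852, minus strand) stood at 0.232 and 0.195 UMIs per 10000 on day 0, and at 0.200 and 0.265 in control at days 0.25 and 1. It stood at 0.379, 0.605 and 0.622 on days 2, 3 and 4 and at 0.512 and 0.647 on day 6, with no overlap between early and late libraries (log2 fold change 1.34 ± 0.18 SE, adjusted p = 0.000222). Ern2 (chr7:122169893-122186207, minus strand), the epithelial IRE1β, was at 0.0781 and 0.104 UMIs per 10000 on day 0, 0.120 on day 0.25 and already 0.513 on day 1. It was then at 1.11, 1.30 and 1.40 on days 2 to 4 and at 0.894 and 1.10 on day 6 (log2 fold change 2.55 ± 0.47, adjusted p = 0.00115). The day 1 library was thus apart from the other early libraries for Ern2 and lay below every late one, and without it the log2 fold change was 3.52.

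Eif2ak3 (chr6:70844515-70905245, plus strand), which codes for PERK, the kinase that slows translation, was at 0.248, 0.223, 0.194 and 0.234 UMIs per 10000 in the early libraries. It was at 0.355, 0.550, 0.540, 0.689 and 0.782 in the late ones, where the 2 libraries of day 6 were the highest (log2 fold change 1.42 ± 0.23, adjusted p = 0.000478). Atf6 (chr1:170704674-170867771, minus strand), the sensor that becomes a transcription factor when it is cut in the Golgi, went from 0.593 to 0.757 UMIs per 10000 early to 1.05 to 1.26 late (log2 fold change 0.86 ± 0.11, adjusted p = 0.000202). Xbp1 (chr11:5520659-5525893, plus strand) was at 1.67, 1.59, 1.65 and 1.78 UMIs per 10000 early and at 2.68, 3.06, 3.35, 2.81 and 3.17 late, again without overlap (log2 fold change 0.88 ± 0.12, adjusted p = 0.00023).

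The median log2 fold change was 0.63 over the chaperones, against 1.34 over the regulators and 1.26 over the degradation genes, a difference that was not tested. Hspa5 (chr2:34771970-34777547, plus strand), the Hsp70 of the ER known as BiP, was at 12.01, 13.5, 14.01 and 12.3 UMIs per 10000 early and at 16.3, 18.9, 21.7, 21.2 and 19.2 late (log2 fold change 0.63 ± 0.16, adjusted p = 0.00805). Dnajc3, a co-chaperone of BiP that also restrains PERK, had the strongest rise of the chaperones, from 1.495, 1.97, 2.02 and 2.095 to 3.17, 3.6, 4.56, 4.53 and 3.73 UMIs per 10000 (log2 fold change 1.09 ± 0.16, adjusted p = 0.000345). Calr, the lectin chaperone calreticulin, was at 5.27, 5.77, 4.92 and 5.28 UMIs per 10000 early and 6.54, 7.34, 7.40, 6.20 and 6.66 late (log2 fold change 0.40 ± 0.12, adjusted p = 0.0164). Early and late libraries did not overlap for any of these genes. Hsp90b1, the ER form of Hsp90, and Canx, the membrane-bound partner of calreticulin, did not pass, with log2 fold changes of 0.06 ± 0.14 and -0.22 ± 0.16.

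P4hb, a protein disulphide isomerase that is also a subunit of the microsomal triglyceride transfer protein, led the oxidative folding genes. It was at 8.85, 9.71, 8.41 and 10.5 UMIs per 10000 early and at 21.0, 19.0, 22.9, 16.6 and 18.6 late (log2 fold change 1.10 ± 0.15, adjusted p = 0.000257). Ero1l, the oxidase that recharges the disulphide isomerases, was not called (log2 fold change -0.29 ± 0.16, adjusted p = 0.148). In the degradation group Edem2, which trims mannose from misfolded glycoproteins, went from 0.328, 0.550, 0.335 and 0.592 to 1.57, 1.85, 2.27, 1.25 and 1.67 UMIs per 10000 (log2 fold change 1.97 ± 0.20, adjusted p = 7.7e-05). Herpud1, a scaffold of the degradation complex, rose by 1.64 ± 0.24 on the log2 scale. Derl3, a derlin of secretory cells, was nearly absent early, with 1 or 2 UMIs in each of the 4 libraries, against 16, 45, 36, 36 and 17 UMIs in the late ones, and its fitted log2 fold change of 4.13 ± 0.54 rests on those few UMIs. Ssr4, a subunit of the translocon-associated complex, led the last group, with 1.92, 2.43, 2.29 and 2.38 UMIs per 10000 early and 2.81, 3.32, 4.01, 3.86 and 4.24 late (log2 fold change 0.74 ± 0.15, adjusted p = 0.00231).

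**Figure D2:**
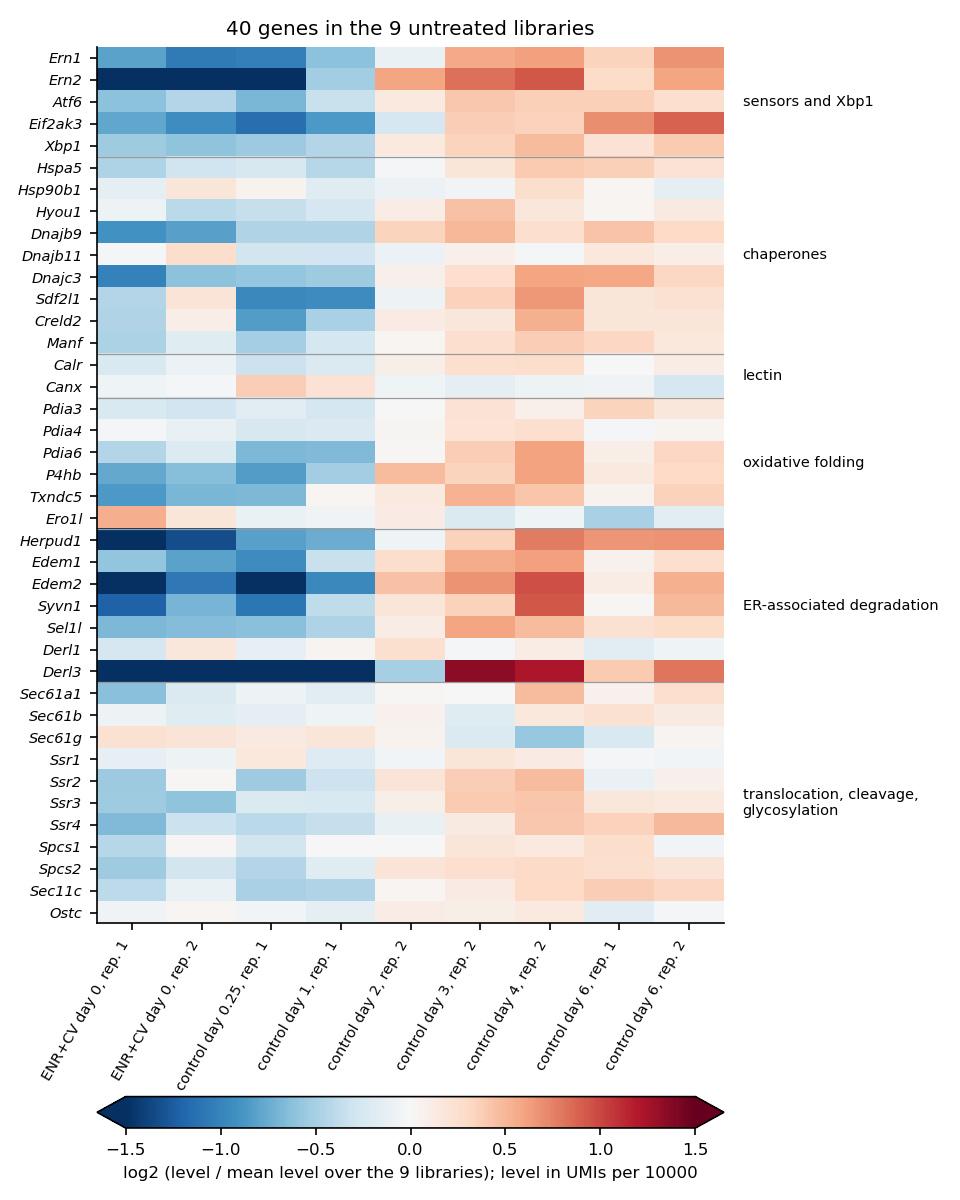
Level of each of the 40 genes in the 9 untreated libraries, as log2 of the level (UMIs per 10000) over the gene's mean across the libraries, with blue below and red above that mean and the scale ending at -1.5 and 1.5. Most rows turn from blue to red between day 1 and day 2, and Derl3 and Ern2 have the widest range.

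Of 63 other measured genes of the secretory pathway, 40 were higher late and 2 lower. The lowest p among those that rose belonged to Fkbp11, an ER prolyl isomerase (log2 fold change 1.26 ± 0.13), to Tmed3, a cargo receptor of early transport vesicles (2.05 ± 0.21), and to Nucb2 (2.11 ± 0.23). Those that fell were Stt3b, a catalytic subunit of oligosaccharyltransferase (-0.64 ± 0.12), and Mbtps2, the protease that releases ATF6 (-0.62 ± 0.14), and Srp19 had the next lowest p without passing (-0.24 ± 0.11).

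Within a class far fewer members differed between early and late libraries, a comparison added after the data were seen. In secretory cells (Paneth-like, goblet-like and enteroendocrine-like summed, 8 libraries with at least 20 cells) 1 of 40 members was higher late and 0 lower, against 3.75% and 5.2% of all genes, and the median log2 fold change was 0.20. The gene was Edem2 (0.92 ± 0.24), and 11 members reached an unadjusted p under 0.05 upward, as did 13.1% of all genes. The makeup of this sum changed with time. Goblet-like cells were 59.1%, 55.3% and 67.0% of it at days 0, 0.25 and 1, and 13.7% and 14.8% at day 6. Paneth-like cells were 19.7%, 23.7% and 6.59%, then 54.8% and 52.5%, and enteroendocrine-like cells 21.2%, 21.1% and 26.4%, then 31.5% and 32.7%. The libraries of days 0 and 0.25 had 66 and 38 secretory cells. The part of this makeup in the result was not tested. In absorptive cells 1 of 36 was higher (Dnajb9, 0.87 ± 0.20) and 7 were lower, against 8.9% and 8.81% of all genes. Those lower were Hsp90b1, Canx, Pdia3, Pdia4, Pdia6, Txndc5 and Ssr4, with log2 fold changes from -0.70 to -0.57, and between 1 (without the control library of day 0.25) and 10 members were called lower when 1 library was left out. In undifferentiated cells 4 of 39 were higher (Ern1 0.81 ± 0.21, P4hb 0.34 ± 0.12, Edem2 1.86 ± 0.17, Syvn1 0.93 ± 0.21) and 5 lower, against 21.7% and 22.6% of all genes. With library sizes alone, without the scaling factors, these last counts were 7 and 1. Over the same time the secretory classes grew from 2.45% and 4.50% of the cells at day 0 to 59.4% and 64.6% at day 6 in control. The difference between the change in whole libraries and that within a class was not tested.

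Secretory cells carried more of most members than absorptive cells of the same library, as was asked in 8 untreated libraries with at least 20 cells of each. Of 39 members tested 30 were higher in secretory cells, 4 were lower and 5 did not pass, against 39.5% and 31.7% of all 10401 genes, with a median log2 fold change of 0.88 over the members and 0.15 over all genes. The regulators were higher in 4 of 5 cases, the chaperones in 8 of 9, the degradation genes in 5 of 6 and the translocation group in 8 of 11. Without TMM factors the all-gene median moved to 0.45, the members to 34 higher and 4 lower, and all genes from 4109 higher and 3295 lower to 5316 and 2435.

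Ern2 separated the lineages most. In absorptive cells it ranged from 0 to 0.120 UMIs per 10000 (median 0.0148, 9 libraries), with at most 9 UMIs in a library, and in secretory cells from 1.13 to 2.56 (median 1.58, 8 libraries), with a log2 fold change of 5.89 ± 0.30 (adjusted p = 1.56e-11). Ern1 ranged from 0.0612 to 0.308 (median 0.135) in absorptive and from 0.277 to 0.867 (median 0.640) in secretory cells, and it was higher in the secretory cells of 8 of 8 libraries (log2 fold change 1.94 ± 0.20, adjusted p = 1.87e-07). Eif2ak3 ranged from 0.0941 to 0.308 in absorptive and from 0.420 to 1.05 in secretory cells (1.63 ± 0.20, adjusted p = 1.46e-06). Atf6 ranged from 0.376 to 0.784 and from 1.21 to 1.63 (0.96 ± 0.12, adjusted p = 1.92e-06). For Ern2, Eif2ak3 and Atf6 the secretory and absorptive levels did not overlap. Xbp1 ranged from 1.66 to 2.78 in absorptive and from 2.27 to 4.11 in secretory cells and was higher in the secretory cells of 8 of 8 libraries, but missed the threshold (0.31 ± 0.14, adjusted p = 0.0594), although without TMM factors it passed (0.60).

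For the effectors, the called member with the largest fold change in each functional group is given, then Hspa5. Txndc5, a disulphide isomerase with thioredoxin domains, ranged from 0.449 to 1.08 UMIs per 10000 (median 0.650) in absorptive and from 3.48 to 7.06 (median 5.87) in secretory cells (log2 fold change 2.73 ± 0.13, adjusted p = 7.61e-12). Sdf2l1, a partner of BiP and its J-domain co-chaperones, ranged from 0.0751 to 0.392 and from 0.615 to 1.74 (2.07 ± 0.17, adjusted p = 1.28e-08). Edem2 ranged from 0.364 to 0.579 and from 0.668 to 2.61 (1.63 ± 0.16, adjusted p = 9.55e-08). These 3 genes did not overlap between the classes, and neither did Sec11c, the catalytic subunit of signal peptidase, at 0.495 to 1.16 and 1.69 to 2.34 (1.28 ± 0.13, adjusted p = 2.12e-07). Calr ranged from 3.18 to 5.80 and from 6.58 to 10.7 (0.73 ± 0.14, adjusted p = 0.000142). Hspa5 differed less, at 11.04 to 19.6 (median 14.0) in absorptive and 17.7 to 44.1 (median 24.2) in secretory cells, with a small overlap (0.53 ± 0.17, adjusted p = 0.00876). Derl3 had 0 UMIs in the absorptive cells of all 9 untreated libraries and up to 31 UMIs in the secretory cells of a library, and was not tested.

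The members that were lower in secretory cells were Ero1l (log2 fold change -1.63 ± 0.15), Dnajb9 (-1.03 ± 0.15), P4hb (-0.67 ± 0.18) and Derl1 (-0.65 ± 0.15). Ero1l ranged from 0.838 to 2.57 UMIs per 10000 in absorptive and from 0.389 to 0.579 in secretory cells, and was higher in the secretory cells of 0 of 8 libraries. Dnajb9, the J-domain protein ERdj4 that holds IRE1 inactive, ranged from 0.343 to 1.01 in absorptive and from 0.297 to 0.919 in secretory cells, where 1 of 8 libraries had the secretory cells higher. P4hb ranged from 19.9 to 31.7 in absorptive and from 11.7 to 28.4 in secretory cells, which overlapped. Its mean level by class was 29.8 in Paneth-like (n = 5 libraries, all of days 2 to 6), 24.6 in absorptive (n = 9) and 22.9 in goblet-like cells (n = 8). These means come from different sets of days, and P4hb was higher in late libraries, so their order was not tested. In enteroendocrine-like cells the mean of P4hb was 7.5 (n = 6), so the sum does not describe each secretory class.

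Of the 63 other genes of the pathway 40 were higher and 5 lower in secretory cells. The lowest p upward were those of Pdia5 (2.88 ± 0.13), a disulphide isomerase, and of Bhlha15 (4.92 ± 0.23) and Spdef (5.59 ± 0.28), transcription factors of secretory cells. Those lower included Ddit3 (-0.92 ± 0.18), the stress factor CHOP, and Vcp (-0.54 ± 0.13), the ATPase that extracts proteins from the ER.

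The secretory classes were not alike. Against absorptive cells of the same libraries, Paneth-like cells had 34 of 40 members higher and 2 lower (5 libraries, 32.3% and 33.1% of all genes, member median 1.37). Goblet-like cells had 33 of 39 higher and 3 lower (8 libraries, 34.7% and 31.8%, median 1.19). Enteroendocrine-like cells had 5 of 37 higher and 14 lower (6 libraries, 37.5% and 34.2%, median -0.16), but without TMM factors these were 22 higher and 5 lower with a median of 0.48 and an all-gene median of 0.74, so the direction of the group in these cells rests on the scaling. The direct comparison, added after the data were seen, had most members higher under both scalings. Paneth-like cells had 38 of 39 members higher than enteroendocrine-like cells and 0 lower (median 1.57, 26% and 33.5% of all genes), or 32 and 2 without TMM factors, and goblet-like cells had 37 of 39 higher and 1 lower (median 1.42, 25% and 28.8%), or 35 and 1. The shares of all genes called without TMM factors are not given here, so those counts have no background beside them.

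Single genes set the classes apart further. Ern1 was highest in enteroendocrine-like cells, at 1.07 ± 0.234 UMIs per 10000 (SD, n = 6 libraries), against 0.678 ± 0.218 (n = 5) in Paneth-like, 0.468 ± 0.166 (n = 8) in goblet-like, 0.3005 ± 0.1246 (n = 9) in undifferentiated and 0.151 ± 0.0720 (n = 9) in absorptive cells. It was lower in goblet-like than in enteroendocrine-like cells (log2 fold change -0.66 ± 0.14, adjusted p = 0.000844), and the difference between Paneth-like and enteroendocrine-like cells missed the threshold (-0.14 ± 0.16, adjusted p = 0.441), although the Paneth-like level was below the enteroendocrine-like one in all 5 libraries. Ern2 had another order, with 2.96 ± 1.08 in goblet-like and 2.24 ± 0.593 in Paneth-like cells and 0.152 ± 0.168, 0.137 ± 0.174 and 0.0252 ± 0.0374 in undifferentiated, enteroendocrine-like and absorptive cells, the last 3 of which overlapped. Sel1l, the adaptor of the ubiquitin ligase Syvn1, also had its highest mean in enteroendocrine-like cells (2.43 ± 0.550, against 2.31 ± 0.507 in Paneth-like cells). Its call as higher in Paneth-like cells (log2 fold change 0.54 ± 0.11 with TMM factors) goes against these levels, which were higher in the Paneth-like cells of 1 of 5 libraries, and the same holds for the call of Ssr2 (0.31 ± 0.11), also 1 of 5. Eif2ak3 had its highest mean in Paneth-like cells, at 1.22 ± 0.157, against 0.736 ± 0.258 in goblet-like cells and 0.260 ± 0.0445 in enteroendocrine-like cells. The Paneth-like libraries were all of days 2 to 6, whereas the goblet-like ones included earlier days. The order of Paneth-like and goblet-like means was not tested within the same libraries.

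Hspa5 was at 31.4 ± 8.76 UMIs per 10000 in goblet-like and 29.5 ± 3.15 in Paneth-like cells, which did not differ beyond their spread, and at 14.4 ± 2.45 in absorptive, 11.9 ± 1.98 in enteroendocrine-like and 11.1 ± 1.29 in undifferentiated cells. Xbp1 was also higher in these classes than in the others, with 4.27 ± 0.555 in Paneth-like and 3.95 ± 0.905 in goblet-like cells, then 2.26 ± 0.415, 2.18 ± 0.325 and 1.65 ± 0.262 in enteroendocrine-like, absorptive and undifferentiated cells.

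**Figure D3:**
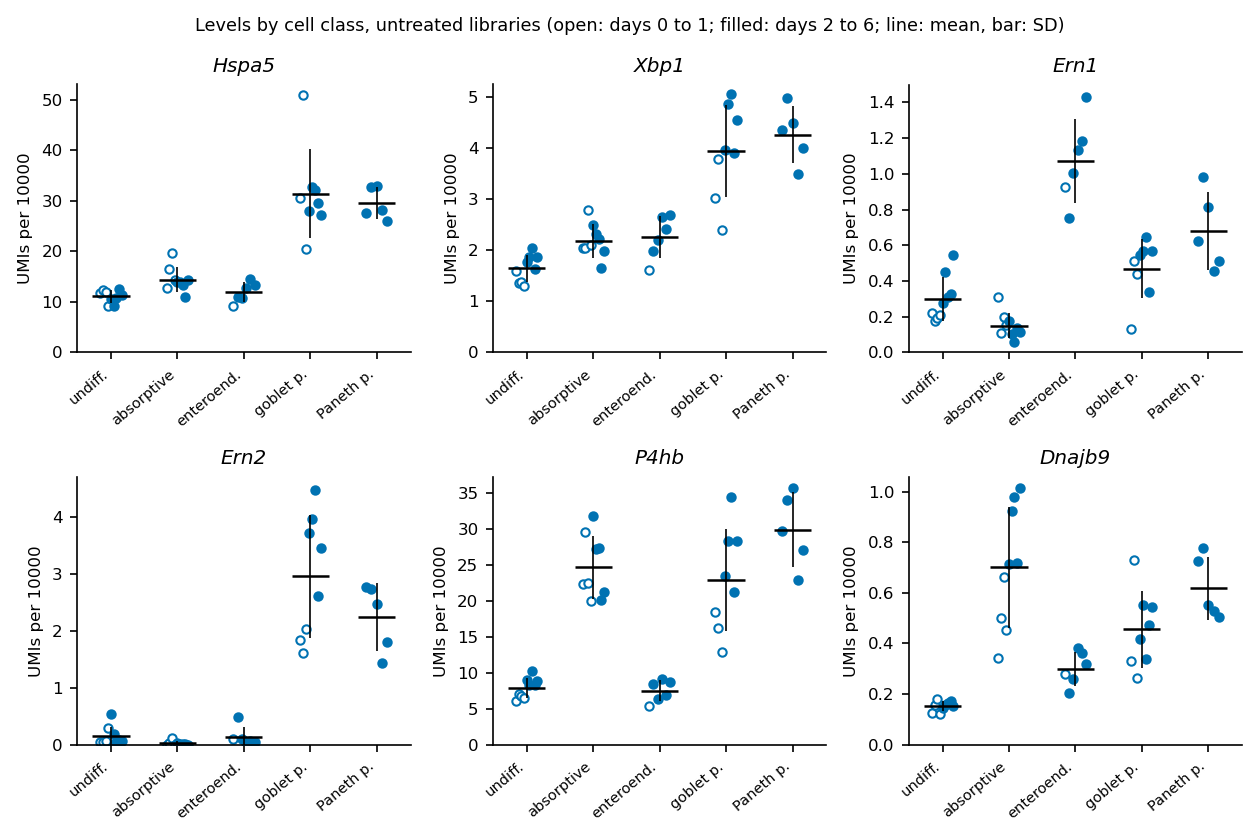
Level of Hspa5, Xbp1, Ern1, Ern2, P4hb and Dnajb9 (UMIs per 10000) in 5 cell classes, with 1 point per untreated library that had at least 20 cells of the class (open, days 0 to 1; filled, days 2 to 6), lines for the mean and bars for the SD. Ern1 is highest in enteroendocrine-like cells (1.07), Ern2 in goblet-like cells (2.96), and Dnajb9 in absorptive cells (0.700).

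Measured against undifferentiated cells, secretory cells had all 40 members higher (median log2 fold change 1.29, 26.2% of all genes higher), or 36 without TMM factors, with 0 lower under both. For the count of 36 the share of all genes is not given here. The smallest difference was that of Canx (0.29 ± 0.07, adjusted p = 0.00336), and the largest were those of Ern2 (3.78 ± 0.30) and Derl3 (3.74 ± 0.53). In absorptive cells 21 of 39 members were higher than in undifferentiated cells and 3 lower (31.6% and 40.7% of all genes, median 0.29), which without TMM factors became 9 higher and 16 lower with a median of -0.22 and an all-gene median of -0.69. Dnajb9 (2.64 ± 0.16), P4hb (2.15 ± 0.13) and Ero1l (2.1 ± 0.11) had the largest of these differences, and their UMIs per 10000 were higher in the absorptive cells of 9 of 9 libraries. Ern2 (-2.43 ± 0.58), Txndc5 (-1.10 ± 0.16) and Pdia4 (-0.62 ± 0.14) were the genes lower in absorptive cells. Of the 63 other pathway genes 59 were higher and 0 lower in secretory than in undifferentiated cells, led by Qsox1 (2.69 ± 0.11), Fkbp11 (2.44 ± 0.10) and Nucb2 (3.04 ± 0.14).

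**Figure D4:**
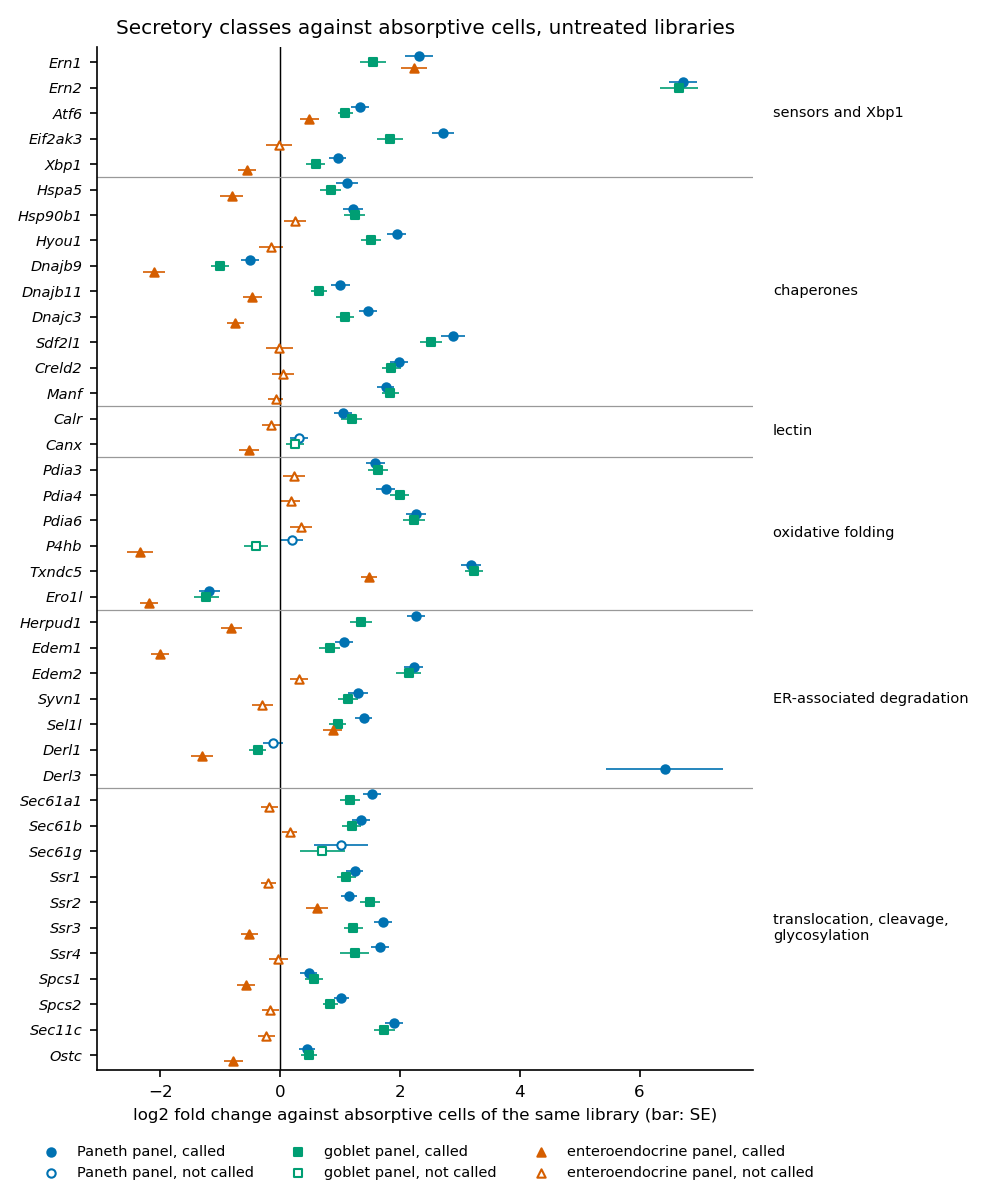
Log2 fold change of each gene in Paneth-like (circles), goblet-like (squares) and enteroendocrine-like cells (triangles) against absorptive cells of the same untreated libraries, with bars for the SE and filled symbols for an adjusted p under 0.05. Circles and squares lie to the right of 0 for most genes, whereas triangles lie on both sides, with Ern1 at 2.24 and P4hb at -2.34, and Dnajb9 and Ero1l lie to the left of 0 in all 3 classes.

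KPT-330 was compared with control over days 0.25 to 6, with day as a factor (7 control and 8 KPT-330 libraries). With TMM factors 29 of 40 members were higher with KPT-330 and 0 lower, against 14.4% and 14.2% of the 12812 genes tested, with a median log2 fold change of 0.36. The count depended on the scaling: without TMM factors 7 members were higher and 0 lower, the member median was 0.09, the all-gene median moved from -0.002 to -0.27 and all genes went from 1841 higher and 1820 lower to 470 and 4879. With every cell given the same weight 4 members were higher (limma). Leaving out 1 library gave 21 (without control day 3) to 36 (without control day 0.25) members higher.

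Derl3 had the largest fold change, at 0.00204 to 0.0561 UMIs per 10000 in control (median 0.0290, n = 7) and 0.00219 to 0.147 with KPT-330 (median 0.0393, n = 8), with 1 to 45 and 1 to 132 UMIs in a library (log2 fold change 1.16 ± 0.23, adjusted p = 0.0034). Within days it was -0.20 on the log2 scale at day 0.25 and 2.09 at day 1, both from 1 to 3 UMIs a library. It was 1.48, 1.08 and 0.95 higher on the log2 scale at days 2, 3 and 4 and 0.03 higher at day 6. Herpud1 followed, at 1.14 to 3.46 (median 2.56) in control and 1.33 to 6.13 (median 4.08) with KPT-330 (0.81 ± 0.11, adjusted p = 0.000527), and it was above control at every day, by 0.22, 0.33, 0.47, 0.71, 0.67 and 0.68 on the log2 scale of the levels. Dnajb9, at 0.247 to 0.477 (median 0.415) and 0.283 to 0.715 (median 0.5555), was also above control at every day (0.69 ± 0.11, adjusted p = 0.00102).

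All 5 regulators were called higher with KPT-330. Eif2ak3 ranged from 0.194 to 0.782 UMIs per 10000 in control (median 0.540) and from 0.220 to 1.22 with KPT-330 (median 0.603), below control at day 1 (-0.09) and with the largest gaps at days 4 and 6 (log2 fold change 0.69 ± 0.14, adjusted p = 0.00332). Atf6 ranged from 0.593 to 1.26 and from 0.611 to 1.61 and was above control at every day (0.46 ± 0.09, adjusted p = 0.00293). Xbp1 (0.44 ± 0.09, adjusted p = 0.00435), Ern1 (0.42 ± 0.10, adjusted p = 0.00856) and Ern2 (0.35 ± 0.08, adjusted p = 0.00707) had within-day differences on both sides of 0. Their ranges over all days were 1.65 to 3.35 and 1.755 to 4.38 for Xbp1, 0.200 to 0.647 and 0.208 to 0.839 for Ern1, and 0.120 to 1.40 and 0.142 to 1.502 for Ern2. Without TMM factors Eif2ak3 still passed (0.40, adjusted p = 0.018), whereas Atf6, Xbp1, Ern1 and Ern2 did not (0.19, 0.18, 0.14 and 0.06).

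Of the remaining groups, the largest called difference was that of Calr among the lectins (0.42 ± 0.09, adjusted p = 0.00352), of P4hb in oxidative folding (0.49 ± 0.11, adjusted p = 0.00516) and of Sec11c in the translocation group (0.52 ± 0.09, adjusted p = 0.00191). Sec11c ranged from 0.962 to 1.74 UMIs per 10000 in control (median 1.47) and from 0.910 to 2.34 with KPT-330 (median 1.83), and it was above control at every day from day 1 on. Calr ranged from 4.92 to 7.40 and from 5.12 to 8.17, and P4hb from 8.41 to 22.9 and from 8.25 to 27.3. Hspa5 ranged from 12.3 to 21.7 and from 12.5 to 27.3 (0.44 ± 0.13, adjusted p = 0.02). For each of these genes the ranges over all days overlapped. The counts per group were 8 of 9 chaperones, 2 of 2 lectins, 2 of 6 oxidative folding genes, 6 of 7 degradation genes and 6 of 11 of the translocation group.

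By day, the median log2 difference of the members in plain levels was -0.09 at day 0.25, when 14 of 39 members with at least 50 UMIs were higher with KPT-330, and 0.13, 0.19, 0.11, 0.11 and 0.13 at days 1, 2, 3, 4 and 6, when 30 of 39, 34 of 40, 30 of 40, 30 of 39 and 28 of 40 were higher. Of all genes 44.2% were higher at day 0.25, and 38.2%, 27.9%, 27.1%, 22.9% and 13.9% at the later days. Over all genes the medians fell from -0.05 at day 0.25 to -0.39 at day 6. The difference between the effect at days 2 to 6 and that at days 0.25 and 1 did not pass for any member in the edgeR test, nor for any of the 12812 genes (0%), whereas 20 of 40 members were higher at an unadjusted p under 0.05, against 5.01% of all genes, and DESeq2 called 0. The median difference was 0.40 on the log2 scale, and the smallest adjusted p was 0.368, that of Herpud1.

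The other 63 pathway genes showed 38 higher and 0 lower with KPT-330. The lowest p were those of Ddit3 (log2 fold change 1.11 ± 0.12), Ero1lb (0.85 ± 0.11), an oxidase related to Ero1l, and Qsox1 (0.61 ± 0.09), a sulphydryl oxidase. Below 0 the lowest p were those of Mbtps1 (-0.17 ± 0.08) and Tusc3 (-0.24 ± 0.19), neither of which passed, and Srp9, at -0.003 ± 0.08.

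Each class was then compared alone, since the makeup of the libraries differed between conditions. Undifferentiated cells, which had the lowest share of member UMIs, were fewer with KPT-330 at every day, at 6.66% and 9.64% against 27.0% at day 3, 6.83% against 30.45% at day 4, and 0.984% and 3.70% against 16.02% and 19.93% at day 6. Absorptive cells were more frequent at days 0.25 to 4, at 28.6% and 31.0% against 10.1% at day 3, and secretory cells were 70.6% and 79.6% at day 6. The part of these shares in the difference of whole libraries was not tested. In secretory cells 27 of 40 members were higher with KPT-330 and 0 lower, against 10.6% and 10.2% of all genes, with a median log2 fold change of 0.32. Without TMM factors there were 8 and 0, with an all-gene median of -0.23 and all genes going from 1231 higher and 1188 lower to 328 and 3212. Without the control library of day 2, the KPT-330 library of day 2 or the control library of day 3, 15 members were called each time. Derl3 (1.04 ± 0.25), Herpud1 (0.81 ± 0.09), Eif2ak3 (0.68 ± 0.12), Dnajb9 (0.65 ± 0.08), Sec11c (0.53 ± 0.08), Ero1l (0.42 ± 0.14) and Calr (0.41 ± 0.09) were called. Herpud1 in secretory cells ranged from 2.15 to 4.84 UMIs per 10000 in control (median 3.38) and from 2.76 to 6.96 with KPT-330 (median 5.54), and Dnajb9 from 0.297 to 0.919 (median 0.465) and from 0.426 to 1.16 (median 0.652), and both were above control at all 6 days. Eif2ak3 ranged from 0.420 to 1.05 and from 0.349 to 1.44, Sec11c from 1.69 to 2.34 and from 2.09 to 3.27, Calr from 6.58 to 10.7 and from 7.01 to 13.6, and Ero1l from 0.389 to 0.579 (median 0.474) and from 0.310 to 1.04 (median 0.442). Ero1l was below control at days 0.25, 1 and 3 and furthest above it at day 6 (0.58 on the log2 scale), where the KPT-330 libraries stood at 0.484 and 1.04. Hspa5 missed the threshold (0.35 ± 0.13, adjusted p = 0.0696), and so did Ern2 (0.23 ± 0.09, adjusted p = 0.0803, and -0.000956 without TMM factors).

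The secretory cells of the conditions were not made up alike. Enteroendocrine-like cells, which carried less of most members than the other secretory classes, were 21.1% to 44.3% of secretory cells in control (median 31.5%) and 5.25% to 29.4% with KPT-330 (median 17.5%), lower with KPT-330 at each day. Paneth-like cells had medians of 24.3% in control and 42.0% with KPT-330. In each secretory class by itself, a comparison added after the data were seen, few members passed. In Paneth-like cells 1 of 40 was higher and 0 lower (Herpud1, 0.46 ± 0.11, adjusted p = 0.0307), against 1.12% and 0.944% of all genes, with a median of 0.06 that was -0.07 without TMM factors. In goblet-like cells 2 of 39 were higher and 0 lower (Dnajb9, 0.55 ± 0.14, and Herpud1, 0.53 ± 0.11), against 2.58% and 1.72% of all genes, with a median of 0.09, or -0.02 without TMM factors. In enteroendocrine-like cells 0 of 38 were higher and 1 lower (Sel1l, -0.58 ± 0.13), against 1.02% and 1.3%, and 11 were higher at an unadjusted p under 0.05, as were 6.25% of all genes. Herpud1 was at 0.61 ± 0.20 there without passing (adjusted p = 0.134). The difference between the sum of the classes and the single classes was not tested.

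Outside the secretory lineage few members were called as well. In absorptive cells 1 of 38 members was higher with KPT-330 and 0 lower (Atf6, 0.51 ± 0.13, adjusted p = 0.0336, and at most 1 in each analysis without 1 library), against 1.89% of all genes in each direction, and 8 were higher at an unadjusted p under 0.05, as were 7.66% of all genes. In undifferentiated cells 0 of 39 were higher or lower, against 1.08% and 0.422%, with 10 higher at an unadjusted p under 0.05 (6.57% of all genes) and 1 called by DESeq2. The difference in the KPT-330 effect between secretory and absorptive cells did not pass for any of the 40 members (0.129% and 0.146% of all genes passed upward and downward), with a median of 0.27, 3 members higher at an unadjusted p under 0.05 (5.61% of all genes) and the smallest adjusted p at 0.279, that of Dnajb9 (0.67 ± 0.24). The effects in both lineages were thus not shown to differ.

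**Figure D5:**
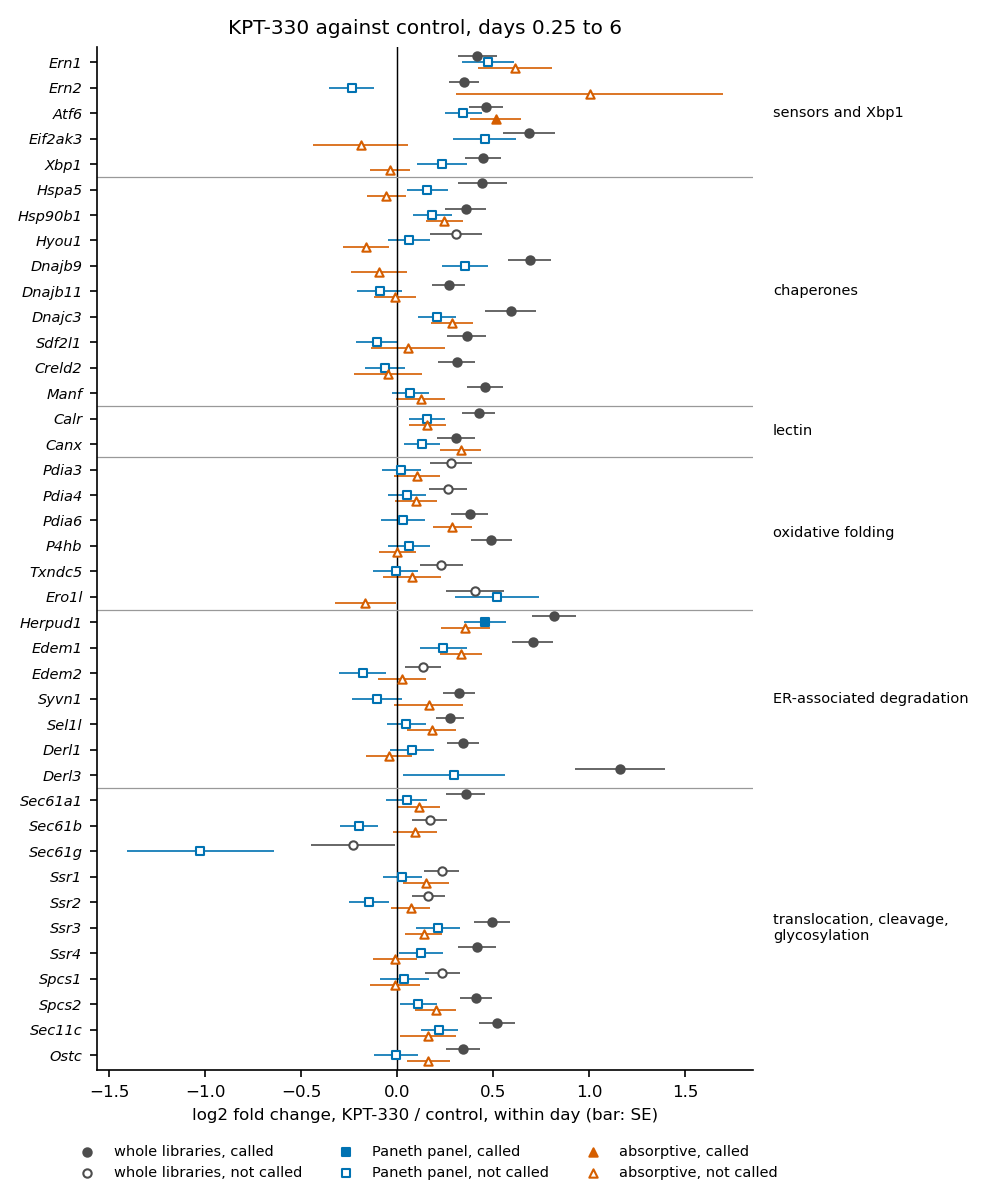
Log2 fold change of each gene with KPT-330 against control within day, in whole libraries (grey circles), Paneth-like cells (blue squares) and absorptive cells (orange triangles), with bars for the SE and filled symbols for an adjusted p under 0.05 with TMM factors. Grey circles lie to the right of 0 for 39 of 40 genes and 29 are filled, while Herpud1 is the 1 filled square and Atf6 the 1 filled triangle.

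The members with 1 of the 3 promoter elements had medians near those of the members without, but the counts of calls differed in some comparisons. Between early and late untreated libraries the 12 members with an element had a median log2 fold change of 0.74 and the 19 with a window but no element also 0.74. The corresponding medians were 0.83 and 0.87 between secretory and absorptive cells and 0.37 and 0.41 for KPT-330 in whole libraries. With KPT-330 in whole libraries, 11 of 12 members with an element were called higher, and 11 of 19 without. Between secretory and absorptive cells 10 of 11 with an element were higher and 0 lower. Of those without, 13 of 19 were higher and 3 lower. Late against early, 9 of 12 and 15 of 19 were higher. These medians and counts are descriptions, without a test. Some members cannot be separated from genes they overlap or resemble in these counts. Hsp90b1, Manf and Pdia4 share exon bases with another gene on the same strand, Calr and Spcs2 have a pseudogene copy, and Eif2ak3, Dnajb9, Pdia3, Pdia6, Txndc5, Syvn1, Sec61a1, Ssr2 and Spcs1 overlap a gene on the other strand, which matters where counting did not use strand.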

How the data were processed

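Reads had been mapped by the authors with STAR (genome mm10, Drop-seq pipeline) and grouped by barcode before duplicate UMIs were merged, and the UMI counts per gene and cell were deposited for each library, not normalized. The annotation release is not given in the sources used here. A merged table of the cells that passed the authors' filters (on genes, UMIs, mitochondrial share, housekeeping genes and doublets) was used only for its cell names. All columns were mapped to a sample.

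Here counts were summed per library, or per library and class with at least 20 cells. A cell joined the class whose panel had the highest z-score, if that was at least 0.5 SD and led the next by 0.25 SD (stricter alternative, a lead of 1.0 SD). This rule was set on marker levels after the files had been seen. The members and lists were chosen with earlier results of these data known. Sums were tested with edgeR 4.0.16 (quasi-likelihood, TMM factors, filterByExpr, R 4.3.3), with Benjamini-Hochberg adjustment over all genes tested and 0.05 as the threshold, and library as a block between classes. DESeq2 1.42.0 and limma 3.58.1 were alternatives. The fits were tested on simulated data. Levels are UMIs per 10000 of the library or class, without TMM factors. Values were named for Hspa5, Xbp1, the 4 sensors, and the called member with the largest fold change in each functional group. Of the other pathway genes the 3 with the smallest p in each direction were named, except that 1 is not reported here. Any further gene was chosen after its values were seen. Of 64 other pathway genes 63 were measured. Ero1l is Ero1a in current annotation. Library totals in UMIs set the precision of counting, and intervals between libraries were not inferred from them.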

Additional observations from a re-analysis of the deposited data

Results flagged for a closer look

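In 6 of 106 groups of libraries a single library lay apart from the rest by Dixon's test, about the number that chance gives at 1 in 20. In the secretory cells of untreated libraries the control library of day 0.25, which had 38 secretory cells, had the highest Hspa5, at 44.1 UMIs per 10000 against 17.7 to 27.4 in the others, and the highest Dnajb9, at 0.919 against 0.297 to 0.498. In the absorptive cells the same library had Ern2 at 0.120, from 6 UMIs, against 0 to 0.0314. The control library of day 1 stood above the other libraries of days 0 to 1 for Ern2, at 0.513 against 0.0781 to 0.120, and for Txndc5, at 2.95 against 1.59 to 1.80. The second ENR+CV library had the highest Sdf2l1 in absorptive cells, at 0.392 against 0.0751 to 0.229.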

How the results depend on the processing

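The members' rise in the time course kept its direction under every alternative run, with 26 to 31 members higher and 0 lower when 1 library was left out. Library sizes without TMM factors, an alternative chosen after seeing the data, moved most results. For enteroendocrine-like against absorptive cells they gave 22 members higher and 5 lower with a median of 0.48, and for absorptive against undifferentiated cells 9 and 16 with a median of -0.22. For KPT-330 they gave 7 members higher in whole libraries, 8 in secretory cells (Ern2 at -0.000956), 0 in absorptive cells, 0 in Paneth-like cells (median -0.0713) and 1 in goblet-like cells (median -0.0248). For Paneth-like against enteroendocrine-like cells 2 were lower. Within classes, late against early, they gave 0 higher in secretory, 11 lower in absorptive, and 7 higher and 1 lower in undifferentiated cells (median 0.0567). That last median ranged from -0.104 to 0.0161 when 1 library was left out, above 0 without control day 4 replicate 2. The cause was not tested.

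Other alternatives moved fewer counts. Member counts under the alternatives are given without the share of all genes called, except where all genes are named. The stricter class rule gave 1 member lower in Paneth-like than absorptive cells, and at least 50 cells per class gave 8 higher in enteroendocrine-like than absorptive cells. Equal weight of cells in limma gave 4 higher with KPT-330. DESeq2 gave 2 higher in absorptive and 1 in undifferentiated cells with KPT-330. Leaving marker genes out of library sizes gave 2 higher in the secretory time course. When 1 library was left out, the members higher with KPT-330 ranged from 21 to 36 in whole libraries, 15 to 33 in secretory, 0 to 1 in absorptive, 0 to 4 in Paneth-like and 1 to 3 in goblet-like cells, and those lower in enteroendocrine-like cells from 0 to 1. The time course ranged from 0 to 6 higher in secretory, 1 to 10 lower in absorptive, and 3 to 6 higher and 2 to 7 lower in undifferentiated cells. Against absorptive cells, 5 to 11 were higher in enteroendocrine-like and 2 to 4 lower in goblet-like cells, and 3 to 5 were lower in absorptive than undifferentiated cells.

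With the replicate number as a block, 29 members were higher in the time course, 30 with KPT-330 in whole libraries, 34 in secretory and 2 in absorptive cells. The numbers are not stated to pair samples. The replicate difference at day 6 correlated at 0.526 between KPT-330 and control, over 11044 genes, and at 0.143 between ENR+CV day 0 and control day 6. Most days had 1 library per condition, and Derl3 rests on few UMIs.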
